A study of Mus musculus with 2 samples.

Results

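The collagen genes other than Col4a1 and Col4a2 were compared between Baf53a-expressing and Baf53b-expressing, Baf53a-deficient mouse ES cells. The members were every gene probe whose RefSeq accession gives a symbol made of Col, a number, a and a number, without Col4a1 and Col4a2. This rule gave 41 genes with 61 probes, out of 20823 genes with 27410 named probes. Col12a1 was not analysed here.

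Both arrays came from 1 clone of Baf53a conditional knockout (cKO) ES cells, derived from E14tg2a. In these cells CRISPR/Cas9 had left deletions of 7 and 23 bp in the Baf53a alleles, and a CRISPR/Cas9-resistant Baf53a was driven by a promoter that Tet switches off. Cells of both conditions grew on gelatin in 15% FBS with LIF and received a vector for Myc-tagged Baf53a or for Myc-tagged Baf53b. They were split 48 h later, according to the transfection methods, and kept in 1 μg/mL Tet for 6 days, according to the methods for the arrays. There was 1 array per condition, so no difference has a replicate check and no test was made. The paper mentions 1 pair of RNA, and neither it nor the labels say how many cultures each RNA came from.

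Collagens are secreted or membrane-bound proteins in which chains with a glycine-rich repeat wind into a triple helix. The chains are hydroxylated, assembled and checked in the endoplasmic reticulum, and outside the cell the fibril-forming types are trimmed and cross-linked. Fibril-forming collagens give bone, skin, tendon and cartilage their tensile strength. FACIT collagens (fibril-associated collagens with interrupted triple helices) sit on the surface of such fibrils, collagen IV builds the meshwork of basement membranes, collagen VI forms beaded filaments, and multiplexins and transmembrane collagens lie at basement membranes and cell surfaces. Baf53a and Baf53b, encoded by Actl6a and Actl6b, are alternative actin-related subunits of BAF chromatin remodelling complexes.

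The 250 bases before the transcription start were available for 33 of the 41 genes, as 36 promoters, from RefSeq on GRCm38.p6. Each promoter was searched on both strands for the GC box (GGGCGG), the CCAAT box (CCAAT) and the TATA box (TATAAA). A GC box and a CCAAT box can share bases at their ends. The promoters of 7 genes are shown because they cover genes detected on both arrays (Col18a1, Col1a2, Col5a1, Col9a2, Col11a2), on 1 array only (Col3a1) and on neither (Col10a1). They lie at chr10:77166531-77166780 on the minus strand (Col18a1), chr6:4505368-4505617 on the plus strand (Col1a2), chr2:27886175-27886424 on the plus strand (Col5a1), chr4:121039316-121039565 on the plus strand (Col9a2), chr17:34038888-34039137 on the plus strand (Col11a2), chr1:45311288-45311537 on the plus strand (Col3a1) and chr10:34389731-34389980 on the plus strand (Col10a1). Each is written 5′ to 3′ in the direction of the gene, with matches to the 3 motifs or their reverse complements in capitals.
Col18a1: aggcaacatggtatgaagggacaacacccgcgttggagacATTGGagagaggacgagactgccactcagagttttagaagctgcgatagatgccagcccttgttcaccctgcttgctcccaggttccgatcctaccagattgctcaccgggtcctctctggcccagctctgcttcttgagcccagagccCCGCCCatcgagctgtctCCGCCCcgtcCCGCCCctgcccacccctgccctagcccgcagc
Col1a2: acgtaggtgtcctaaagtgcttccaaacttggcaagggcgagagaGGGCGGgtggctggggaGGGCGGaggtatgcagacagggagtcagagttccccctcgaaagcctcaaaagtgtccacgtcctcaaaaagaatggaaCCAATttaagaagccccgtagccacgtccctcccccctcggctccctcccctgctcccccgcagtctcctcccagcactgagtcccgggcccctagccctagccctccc
Col5a1: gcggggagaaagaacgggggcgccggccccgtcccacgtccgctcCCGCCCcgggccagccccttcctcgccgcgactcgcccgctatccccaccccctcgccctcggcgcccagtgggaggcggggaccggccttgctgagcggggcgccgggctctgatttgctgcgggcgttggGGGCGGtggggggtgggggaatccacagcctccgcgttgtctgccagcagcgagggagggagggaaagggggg
Col9a2: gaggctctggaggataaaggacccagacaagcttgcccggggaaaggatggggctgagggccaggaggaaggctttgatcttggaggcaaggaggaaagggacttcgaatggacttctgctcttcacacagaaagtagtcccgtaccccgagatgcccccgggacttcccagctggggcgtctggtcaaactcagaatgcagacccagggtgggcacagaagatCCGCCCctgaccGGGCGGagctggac
Col11a2: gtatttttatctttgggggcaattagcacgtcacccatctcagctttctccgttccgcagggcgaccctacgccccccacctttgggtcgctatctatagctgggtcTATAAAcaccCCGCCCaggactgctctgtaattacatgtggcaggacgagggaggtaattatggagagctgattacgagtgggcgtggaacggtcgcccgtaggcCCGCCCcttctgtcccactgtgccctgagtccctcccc
Col3a1: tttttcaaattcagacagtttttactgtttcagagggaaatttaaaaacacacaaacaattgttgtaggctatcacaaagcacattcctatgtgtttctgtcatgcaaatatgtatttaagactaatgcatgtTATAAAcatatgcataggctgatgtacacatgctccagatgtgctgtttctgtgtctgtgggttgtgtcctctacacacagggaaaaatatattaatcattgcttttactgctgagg
Col10a1: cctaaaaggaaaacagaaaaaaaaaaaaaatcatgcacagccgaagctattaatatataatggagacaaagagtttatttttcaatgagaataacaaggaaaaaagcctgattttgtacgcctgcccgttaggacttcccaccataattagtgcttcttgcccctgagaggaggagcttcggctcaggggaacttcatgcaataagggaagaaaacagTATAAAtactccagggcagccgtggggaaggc

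The promoters of collagen genes detected on both arrays more often held a GC box than those of the other collagen genes. A GC box was present in 19 of 27 promoters (70.4%) of the first kind and in 2 of 9 (22.2%) of the second. The same direction held across all genes, with a GC box in 51.1% of 16479 promoters of genes detected on both arrays and in 14.9% of 3213 promoters of genes detected on neither. The 9 collagen promoters also include genes detected on 1 array only. Of collagen genes detected on neither array, 2 of 6 promoters (33.3%) held a GC box. Of those detected on 1 array only, 0 of 3 did, against 21.7% of 437 promoters of all such genes. Over all 32841 promoters the share was 32.7%, and over the 36 collagen promoters it was 58.3%. A TATA box was present in 2 of the 27 promoters (Col11a2 and Col13a1) and in 3 of the 9 (Col3a1, Col17a1 and Col10a1), against 12.4% of all promoters. A CCAAT box was present in 11 of the 36 collagen promoters (30.6%), against 33.9% of all promoters. Col18a1 has a second start at chr10:77113706-77113955, on the minus strand, whose 250 bases held none of the 3 motifs. No test was made on these counts, and a match of letters does not show that a factor binds.

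**Figure D1:**
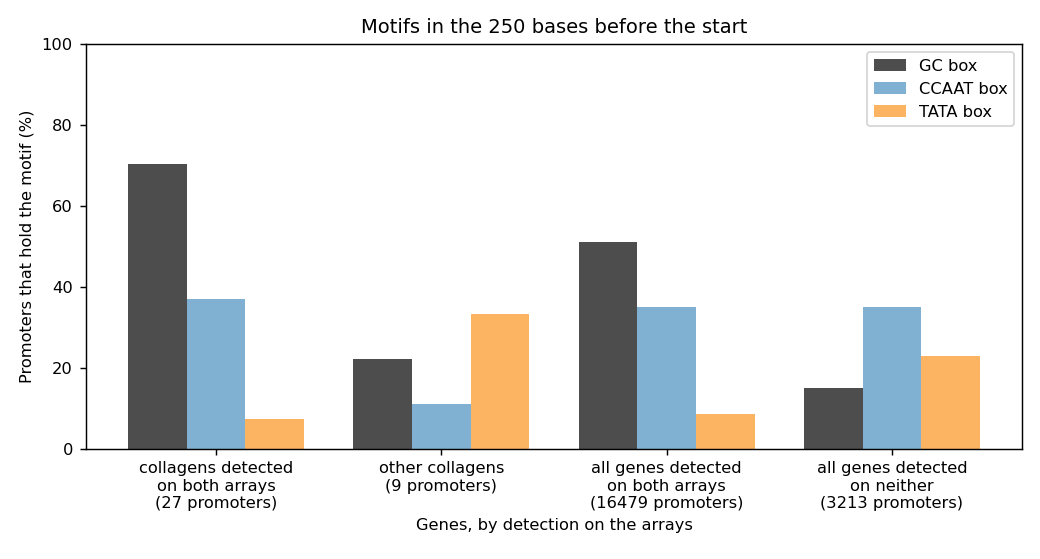
Share of promoters (vertical axis, %) that hold a GC box, a CCAAT box or a TATA box in the 250 bases before the start, for collagen genes and for all genes grouped by detection on the arrays (horizontal axis, with the number of promoters). The GC box bar is 70.4% for collagen genes detected on both arrays and 22.2% for the other collagen genes, and 51.1% and 14.9% for all genes detected on both arrays and on neither.

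The values below are processed signals, which are spot brightness after background subtraction, and log2 differences between Baf53b- and Baf53a-expressing cells after the 75th percentile of each array had been set to 0. Those percentiles were signals of 1161 and 1128 in Baf53a- and Baf53b-expressing cells. The signals as given are not scaled, so a difference can depart slightly from their ratio. Signals of different probes are not on a common scale, so they were compared only between the arrays. A probe counted as detected when the extraction software flagged it as well above background. Of all gene probes, 75.2% were detected in Baf53a-expressing cells and 76.4% in Baf53b-expressing cells. The labels were checked on the genes of the Baf53 forms. Actl6b read 3.4 on the array of Baf53a-expressing cells, not well above background, and 119 on the other, at least 14.5-fold higher. Actl6a read 3806 and 3600, a difference of -0.04, so only Actl6b told the labels apart.

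Collagen transcripts were detected for most members in both conditions. Of the 41 genes, 30 had a probe well above background on both arrays, 4 on 1 array only and 7 on neither. Over all 20823 named genes these counts were 16608, 515 and 3700. By probe, 37 of 61 (60.7%) were detected on both arrays, against 74.2% of all gene probes, and 17 (27.9%) on neither, against 22.7%. Among the named gene probes, to which all collagen probes belong, these shares were 79.0% and 18.5%. Another 3 of the 61 probes were detected only in Baf53a-expressing cells, against 378 of all 39411 gene probes (0.959%). Detection only in Baf53b-expressing cells was found for 4 of the 61, against 858 of the 39411 (2.18%). The genes detected on neither array were Col24a1, Col4a3, Col6a6, Col8a1, Col10a1, Col19a1 and Col28a1. They include Col10a1, the collagen of hypertrophic cartilage, and Col4a3, a chain of the glomerular basement membrane. Their signals lay between 1.98 (Col10a1 in Baf53b-expressing cells) and 6.15 (Col6a6 in Baf53a-expressing cells), below the lowest signals well above background on the arrays, 8.45 and 9.75. This limit concerns these probes and does not show that a transcript was absent.

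**Figure D2:**
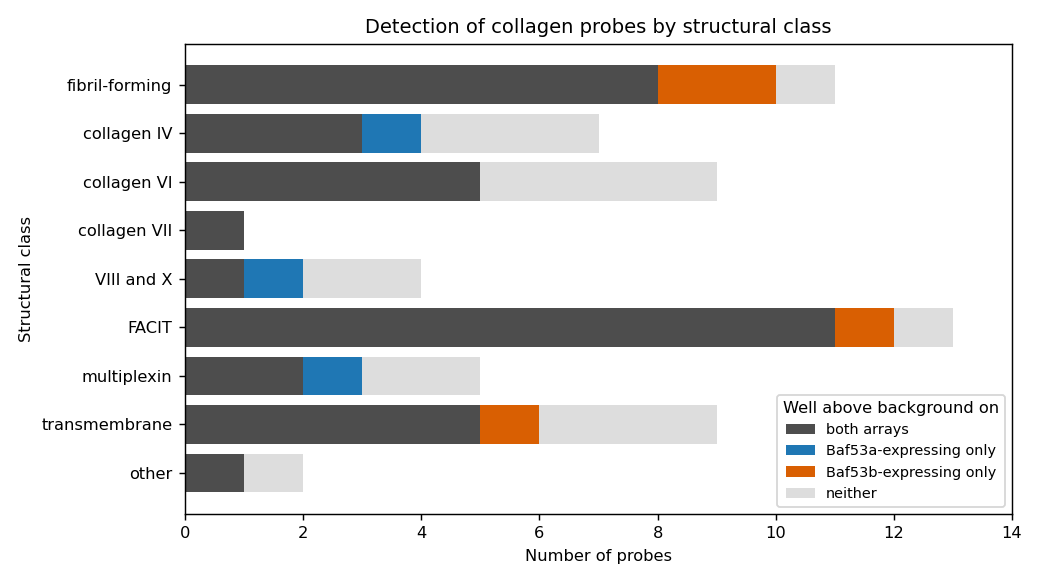
Number of probes (horizontal axis) in each structural class of collagens (vertical axis) that were well above background on both arrays, on 1 array only or on neither. Most fibril-forming probes (8 of 11) and FACIT probes (11 of 13) were detected on both arrays, against 1 of 4 probes of collagens VIII and X.

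No collagen probe detected on both arrays differed by 0.5 or more on the log2 scale between Baf53b- and Baf53a-expressing cells. Among all 29247 probes detected on both arrays, 2.27% were at least 0.5 higher in Baf53b-expressing cells and 0.783% at least 0.5 lower. No collagen probe differed 2-fold, as 0.137% of all probes did upward and 0.116% downward. The 37 differences ran from -0.40 (a probe of Col9a1) to 0.47 (Col11a2), with a median of 0.08, against -0.001 over all probes. With quantile normalization the median over the collagen probes was 0.00. Of the 37 probes, 24 (64.9%) lay within 0.2 of 0, against 77.4% of all probes.

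More collagen probes were higher than lower in Baf53b-expressing cells, although the split depended on the scaling. It was 23 higher (62.2%) and 14 lower, against 49.7% of all probes higher, a share not matched for brightness. With each array centred on its median, 21 of the 37 (56.8%) were higher, against 37.5% of all probes. With quantile normalization 17 (45.9%) were higher, against 47.9% of all probes, so that the collagen share was then the lower of the pair. With normexp background correction 29 (78.4%) were higher, against 59.0%. This setting adds an offset of 50 to every signal, which shrinks the differences of dim probes by construction. A value near 0 under it therefore cannot decide whether a dim difference holds. By gene, with probes averaged, 19 of 30 (63.3%) were higher and 11 lower, against 49.1% of all genes higher. Differences of 0.25 or more before rounding were found for 5 probes upward (13.5%, against 11.3% of all probes) and 5 downward (13.5%, against 4.51%).

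The size of these differences has to be read against brightness. Sorted into 5 equal groups by mean signal, from dimmest to brightest, the groups of all probes held 15, 8, 9, 3 and 2 collagen probes. Probes of the dimmest group scattered most. Where a probe was printed at least 5 times per array, the spots gave an SD of a difference of 0.274 in the dimmest group and 0.059 in the brightest. This SD covers the spread of spots within an array, not between cultures. The median difference over all probes also moved with brightness, being 0.098 among the dimmest and -0.063 among the brightest. From dimmest to brightest, 64.6, 61.4, 55.5, 42.6 and 24.2% of all probes were higher in Baf53b-expressing cells. In the same groups 6, 8, 5, 2 and 2 of the collagen probes were higher. The counts by class and list below are to be read against these shares. Every collagen probe was printed once per array, so it has no spot SD of its own. Of the 37 differences, 20 were farther from 0 than the spot SD of their group, against 52.7% of all probes, and 7 were farther than 2 of these SDs, against 22.4% of all probes. The error that the extraction software assigns to both spots was exceeded by 9, against 18.7% of all probes. These counts are near those of all probes, so a difference beyond the spot SD does not set a collagen apart. The 7 were those of Col2a1, Col7a1, Col13a1, Col22a1, 1 probe each of Col18a1 and Col25a1, all higher in Baf53b-expressing cells, and that of Col9a2, which was lower. Against the median of their own brightness group, 21 collagen probes were higher and 16 lower, where 50% of all probes are higher by construction.

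**Figure D3:**
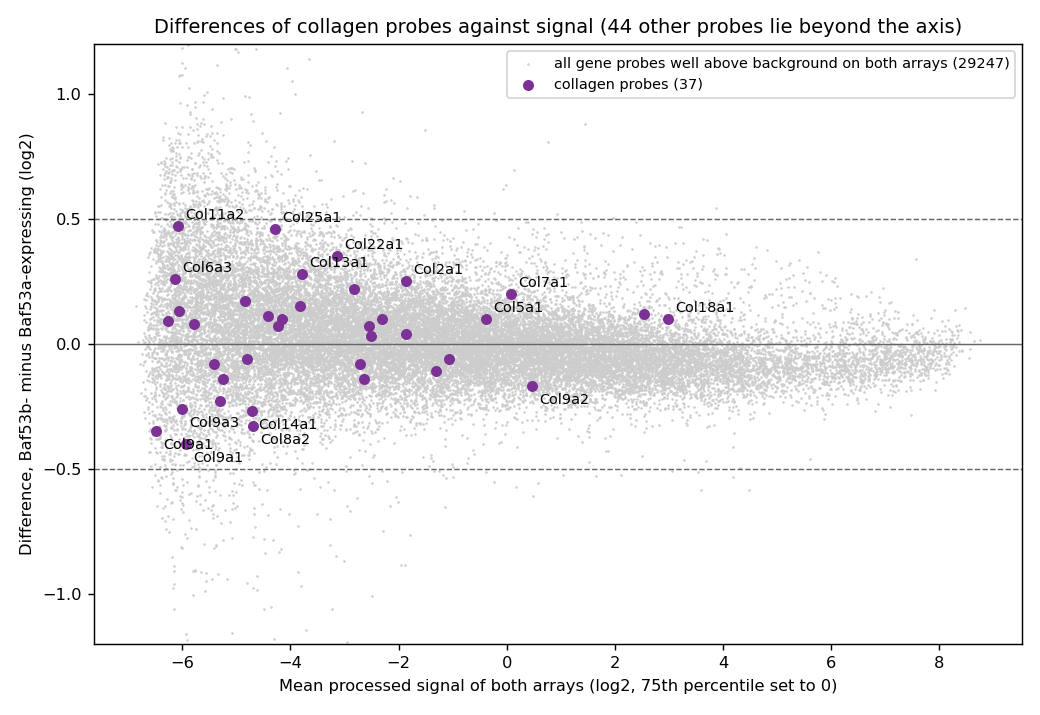
Difference between Baf53b- and Baf53a-expressing cells (vertical axis, log2) against mean processed signal (horizontal axis, log2, 75th percentile set to 0) for the 37 collagen probes and all 29247 probes detected on both arrays, with dashed lines at 0.5 in each direction. Every collagen point lies between the dashed lines, and collagen points with a difference of 0.25 or more after rounding or a high signal carry their gene symbol.

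Of the fibril-forming collagens, 7 of 8 probes detected on both arrays were higher in Baf53b-expressing cells. These probes lay outside the brightest group, and in the other brightness groups 42.6 to 64.6% of all probes were higher. Their median difference was 0.14. The median was positive under all alternative settings and was 0.02 at the lowest, with a stricter filter on dim probes that left only Col5a1 and Col5a3. Several of these settings could hardly change it, since each fibril-forming gene has 1 probe of 1 spot. Collagen I, the main collagen of bone and skin, is built from the products of Col1a1 and Col1a2. Col1a1 read 314 in Baf53a-expressing cells and 313 in Baf53b-expressing cells, a difference of 0.04. Col1a2 read 153 and 172, a difference of 0.22. The difference of Col1a1 was thus within the spot SD of its brightness group, 0.0799, and that of Col1a2 was beyond its own, 0.119.

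Col2a1, Col11a1 and Col11a2 encode the collagen II and XI chains of the heterotypic fibrils of cartilage, and all were higher in Baf53b-expressing cells. The probes of collagen IX, which coats these fibrils, were all lower, with differences from -0.40 to -0.17. Col2a1 read 294 in Baf53a-expressing cells and 339 in Baf53b-expressing cells, a difference of 0.25 on the log2 scale. Col11a1 read 16.7 and 17.7, a difference of 0.13. Col11a2 read 14.6 and 19.7, a difference of 0.47, the largest among the 37 collagen probes. Both collagen XI probes were in the dimmest group, where the spot SD was 0.274, and the difference of Col11a2 was 0.05 with normexp background correction. The promoter of Col11a2 is among those printed above and held a GC box and a TATA box.

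Collagen V, which regulates the diameter of collagen I fibrils, was represented by Col5a1, Col5a2 and Col5a3. Col5a1 read 855 in Baf53a-expressing cells and 891 in Baf53b-expressing cells, a difference of 0.10. Col5a3 read 564 and 524, a difference of -0.06, the only fibril-forming probe detected on both arrays that was lower. Col5a2 was detected in Baf53b-expressing cells only. Of the remaining fibril-forming genes, Col27a1 read 78.1 and 84.1, a difference of 0.15. Col24a1 was not detected on either array.

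Col3a1 and Col5a2 are neighbours on chromosome 1 and were the fibril-forming genes detected in Baf53b-expressing cells only. Col3a1, the collagen of reticular fibres in skin and vessels, read 8.73 in Baf53a-expressing cells and 11.3 in Baf53b-expressing cells. The observed fold was 1.33 after scaling. Col5a2 read 7.82 and 12.9, with a bound of 1.57-fold. The bound of Col5a2, 0.65 on the log2 scale, was 0.17 with normexp background correction and 0.37 with the authors' value table, and that of Col3a1, 0.42, was 0.16 and 0.18. Such a bound divides the scaled signal of the array with detection by whichever was higher on the other array, the probe's own scaled signal or the lowest scaled signal well above background. For Col3a1 the bound was the observed fold itself and not a lower limit. The software errors of the differences were 0.48 for Col3a1 and 0.49 for Col5a2 on the log2 scale. The signals of Col3a1 and Col5a2 in Baf53b-expressing cells were close to 9.75, the lowest signal well above background on that array. That value is not a sharp limit, since probes of Col8a2 at 10.5 and Col4a4 at 9.86 there were not well above background.

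The collagen IV chains outside the rule's exception were lower in Baf53b-expressing cells for all 3 probes detected on both arrays, with a median of -0.14, which became 0.01 with normexp background correction. Col4a6 read 196 in Baf53a-expressing cells and 172 in Baf53b-expressing cells, a difference of -0.14. Another probe of Col4a6 was not well above background on either array, at 3.65 and 8.6, and with no filter or a weaker detection flag, which let it in, the gene mean was 0.57. Its neighbour Col4a5, on chromosome X, read 27.8 and 25.5, a difference of -0.08. Col4a4 read 32.0 and 28.3, a difference of -0.14. The differences of Col4a4 and Col4a5 were within the spot SD of the dimmest group, and both were positive with normexp background correction. A second probe of Col4a4 was detected in Baf53a-expressing cells only, at 13.6 against 9.86. The observed fold, 1.34 after scaling, was within the software error of 0.43 on the log2 scale. It was lost with normexp background correction. Col4a3, the neighbour of Col4a4 on chromosome 1, was detected on neither array. Col4a1 and Col4a2, the chains of the widespread form of collagen IV, were left out by the rule, and their differences were 0.23 and 0.31, opposite in sign to those of the other collagen IV chains.

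Collagen VI probes were higher in Baf53b-expressing cells in 4 of 5 cases, with a median of 0.10. Col6a1, Col6a2 and Col6a3 encode the chains of its classical trimer. Col6a1 read 52.4 in Baf53a-expressing cells and 55.1 in Baf53b-expressing cells, a difference of 0.11. Col6a2, its neighbour on chromosome 10, read 42.2 and 39.4, a difference of -0.06, which was 0.01 with normexp background correction. Col6a3 read 15.1 and 17.6, a difference of 0.26, within the spot SD of its dim group. The classical chains thus differed in sign, and none of the 3 exceeded the spot SD of its group. Col6a4, Col6a5 and Col6a6, a run of neighbours on chromosome 9, encode chains that can take the place of the Col6a3 product. Col6a5 read 194 and 198, a difference of 0.07. Col6a4 read 62.6 and 65.3, a difference of 0.10, and its mean was -0.64 with no filter, which let in an undetected probe at 5.38 and 2.0. Both probes of Col6a6 were undetected on both arrays.

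Collagen VII, encoded by Col7a1, forms the anchoring fibrils below stratified epithelia. Its probe read 1148 in Baf53a-expressing cells and 1279 in Baf53b-expressing cells, a difference of 0.20. It was beyond 2 spot SDs of its brightness group, 0.0664 each, and ran from 0.15 to 0.24 over the alternative settings. The error that the software assigns to this difference was also 0.20. Of the network-forming collagens VIII and X, only Col8a2, a chain of the basement membrane of the corneal endothelium, was detected on both arrays. One probe of Col8a2 read 50.3 and 38.7, a difference of -0.33, which was 0.01 with normexp background correction. Its other probe was detected in Baf53a-expressing cells only, at 15.1 against 10.5, an observed fold of 1.40 after scaling. Taken as a bound, 0.48 on the log2 scale with a software error of 0.42, it was 0.03 with normexp background correction.

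FACIT collagens were lower in Baf53b-expressing cells for 7 of 11 probes, with a median of -0.11, which ran from -0.16 to 0.00 over the alternative settings. Collagen IX, which coats the collagen II fibrils of cartilage, accounted for 4 of the 7. The probes of Col9a1 read 21.9 and 14.6 in Baf53a-expressing cells and 16.1 and 11.1 in Baf53b-expressing cells, differences of -0.40 and -0.35. Col9a2 read 1694 and 1464, a difference of -0.17. Col9a3 read 19.8 and 16.1, a difference of -0.26. All collagen IX probes were lower in Baf53b-expressing cells. The mean difference of Col9a1 was 0.03 with normexp background correction, whose offset shrinks differences of dim probes. The Col9a2 probe was the only collagen IX probe outside the dimmest group. Its difference was beyond 2 spot SDs of 0.0664 but within the software error of 0.20. It ran from -0.22 to -0.15 over the alternative settings. The Col9a2 promoter printed above held a GC box, and neither of the promoters of Col9a1 did.

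The other FACIT genes moved in both directions. Col22a1, a collagen of the myotendinous junction, read 117 in Baf53a-expressing cells and 144 in Baf53b-expressing cells, a difference of 0.35. It was beyond 2 spot SDs of 0.119 and ran from 0.27 to 0.35 over the alternative settings. The Col14a1 probes read 48.4 and 20.6 against 38.9 and 21.1, differences of -0.27 and 0.08. For Col16a1 the probes read 484 and 60.6 against 437 and 61.6, differences of -0.11 and 0.07, and the mean of Col16a1 was 0.39 with no filter or a weaker detection flag. Probes of both genes thus disagreed in sign. Another probe of Col16a1 was detected in Baf53b-expressing cells only, where it read 10.9, against 4.87 in Baf53a-expressing cells, a bound of 1.33-fold, or 0.41 on the log2 scale, which was 0.13 with normexp background correction and 0.13 with the authors' value table. Col20a1 probes read 225 and 182 against 235 and 167, differences of 0.10 and -0.08. Col19a1, which neighbours Col9a1 on chromosome 1, was detected on neither array.

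Among the multiplexins, both probes of Col18a1 were detected on both arrays. Collagen XVIII is a proteoglycan of basement membranes and the precursor of endostatin. Its probes read 8845 and 6422 in Baf53a-expressing cells and 9190 and 6785 in Baf53b-expressing cells, differences of 0.10 and 0.12. Both exceeded the spot SD of the brightest group, 0.059, but were within the software error of 0.20. The median over all probes of that group was -0.063. The mean difference of Col18a1 stayed between 0.06 and 0.17 over the alternative settings. Col15a1, the other multiplexin, was detected by 1 of 3 probes and in Baf53a-expressing cells only, at 15.3 against 7.43, with a bound of 1.52-fold. That bound, 0.61 on the log2 scale, was 0.08 with normexp background correction.

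Transmembrane collagens were higher in Baf53b-expressing cells for 4 of 5 probes, with a median of 0.17. Col13a1, a collagen of cell adhesions and the neuromuscular junction, read 76.2 in Baf53a-expressing cells and 89.9 in Baf53b-expressing cells, a difference of 0.28. The probes of Col23a1 read 38.3 and 14.7 against 42.0 and 15.1, differences of 0.17 and 0.09. Col25a1, a neuronal collagen also found in amyloid plaques, gave conflicting values. One probe read 50.8 and 67.7, a difference of 0.46, and the other read 31.9 and 26.3, a difference of -0.23, so that the gene mean of 0.11 describes neither. Col17a1, a component of hemidesmosomes, was detected in Baf53b-expressing cells only, where it read 10.7, against 9.35 in Baf53a-expressing cells. The bound was the observed fold of 1.18, or 0.24 on the log2 scale. It was within the software error of 0.47 and was 0.11 with normexp background correction. Of the remaining collagens, Col26a1 read 203 and 201, a difference of 0.03, and Col28a1 was detected on neither array.

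**Figure D4:**
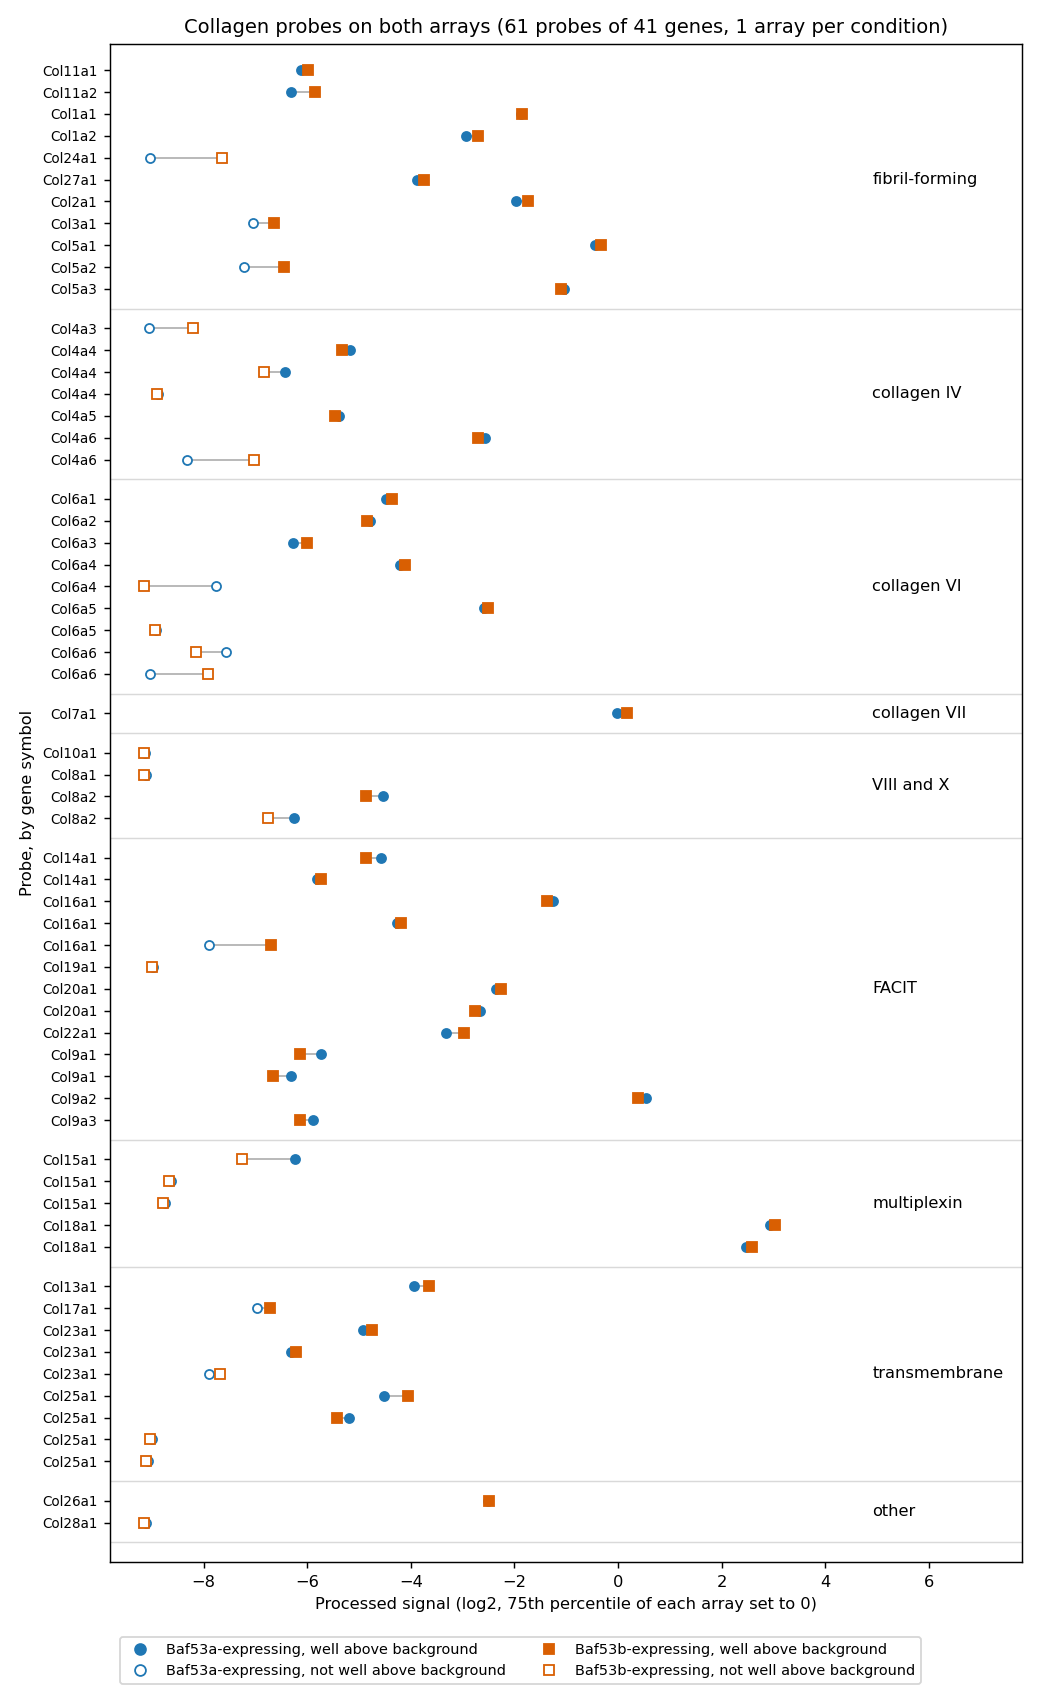
Processed signal (horizontal axis, log2, 75th percentile of each array set to 0) of each of the 61 collagen probes (vertical axis, by gene and structural class) in Baf53a-expressing (circles) and Baf53b-expressing cells (squares), with open symbols where a probe was not well above background. Filled pairs lie close together, within 0.47 of each other, and positions of different probes are not to be compared since probes differ in brightness per transcript.

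Genes with several probes showed how far 1 probe can be trusted at these signals. For 7 collagen genes 2 probes were detected on both arrays, and the pair lay on the same side of 0 for 3 of them (Col9a1, Col18a1 and Col23a1). That is 42.9%, against 2207 of 3521 (62.7%) of all genes with 2 such probes. Only Col25a1 had probes more than 0.5 apart, at 0.69. The 7 probes detected on 1 array only had bounds of 1.18- to 1.57-fold, none of them reaching 2-fold, as 10.1% of the 1236 such probes on the array did. For the probes of Col3a1, Col17a1, Col4a4 and Col8a2 the bound was the observed fold. No bound allows for the error of a spot.

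Genes that make, secrete, bind or degrade collagens were examined beside the collagens. Of 66 such genes with probes, 55 were detected on both arrays, by 75 probes. Of these probes 46 (61.3%) were higher in Baf53b-expressing cells and 29 lower, against 49.7% of all probes higher, a share not matched for brightness. Their median difference was 0.04, against 0.08 for the collagens. Only 1 of the 75 probes reached 0.5, a probe of Loxl4, a lysyl oxidase-like enzyme that cross-links collagen. It read 170 in Baf53a-expressing cells and 235 in Baf53b-expressing cells, a difference of 0.51. A second Loxl4 probe read 101 and 134, a difference of 0.45.

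The genes acting inside the cell were nearly balanced. Of 18 probes of hydroxylases and glycosyltransferases, 9 were higher and 9 lower. P4hb, the disulfide isomerase subunit of prolyl 4-hydroxylase, read 11478 and 10777, a difference of -0.05. Ppib, a prolyl isomerase of the same compartment, read 18587 and 15931, a difference of -0.18. Chaperones and secretion factors had 8 probes higher and 5 lower, with a median of 0.03 that was -0.03 when arrays were centred on the median. Sparc, a collagen-binding glycoprotein, read 192591 and 190372 on its brighter probe, a difference of 0.03, and Sec31a, of the coat of secretory vesicles, read 10207 and 9180, a difference of -0.11.

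Among genes acting outside the cell, the lists differed in sign. Procollagen proteinases and cross-linkers had 8 probes higher and 11 lower, with a median of -0.10 that was 0.02 with normexp background correction. Pcolce, an enhancer of procollagen trimming, read 37157 in Baf53a-expressing cells and 32979 in Baf53b-expressing cells, a difference of -0.13. Pcolce2 read 2849 and 2588, a difference of -0.10. Collagen receptors had 9 probes higher and 2 lower, with a median of 0.12. Itgb1, the integrin β1 chain, read 2037 and 2064, a difference of 0.06, and Ddr1, a collagen-binding receptor kinase, read 506 and 535, a difference of 0.12. Collagen-degrading enzymes and their inhibitors had 8 higher and 2 lower, with a median of 0.12. Of these, Ctsl, a lysosomal cathepsin, read 38060 and 39862, a difference of 0.11, and Timp1, a metalloproteinase inhibitor, read 4273 and 3880, a difference of -0.10. All 4 detected probes of small leucine-rich proteoglycans were higher, with a median of 0.15. Bgn read 384 and 376, a difference of 0.01, and Dcn read 75.1 and 94.2, a difference of 0.37.

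**Figure D5:**
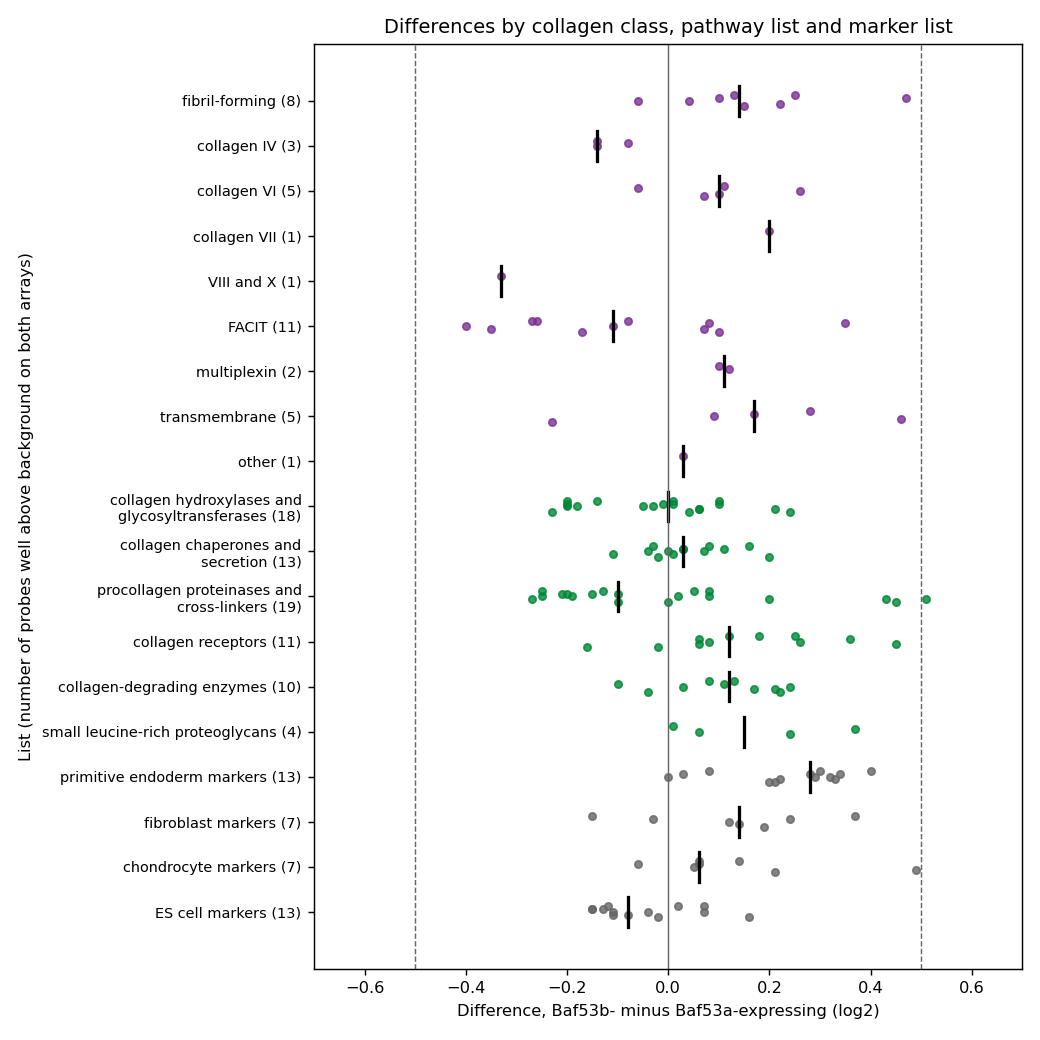
Differences between Baf53b- and Baf53a-expressing cells (horizontal axis, log2) for probes detected on both arrays, by collagen class, pathway list and marker list (vertical axis, with the number of probes). Each point is a probe and each black line the median of its list, which runs from -0.33 (collagens VIII and X, 1 probe) to 0.28 (primitive endoderm markers), and dashed lines mark 0.5 in each direction.

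Markers of the labelled and of other cell types were read from the same arrays. All 13 probes of ES cell markers were detected on both arrays, and their median difference was -0.08. Pou5f1, which encodes Oct3/4, read 27167 in Baf53a-expressing cells and 24042 in Baf53b-expressing cells. Primitive endoderm markers, which include producers of basement membrane, were detected by all 13 probes, with 12 higher and 1 lower (a probe of Sparc whose difference rounds to 0) and a median of 0.28, which stayed between 0.23 and 0.28 over the alternative settings. The scaled signals of that list summed to 202 in Baf53a-expressing cells and 211 in Baf53b-expressing cells, most of it from Sparc, and to 30.8 and 37.7 without Sparc. Such sums are weighted by the brightness of each probe. Those of the ES cell list summed to 355 and 343. The 61 collagen probes, detected or not, summed to 19.6 and 20.8, most of it from Col18a1. Sparc belongs to the primitive endoderm list and to the list of chaperones and secretion factors.

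Fibroblast markers were detected in part. Of 12 fibroblast probes, 7 were detected on both arrays, with a median of 0.14 and sums of 2.26 and 2.37, and of the 10 genes Dcn, Lum, Pdgfrb, S100a4, Thy1 and Twist2 were detected while Postn, Prrx1, Fap and Tcf21 were not well above background on either array. The lists of fibroblast markers and of small leucine-rich proteoglycans share Dcn. Of 8 chondrocyte probes, 7 were detected on both arrays, with a median of 0.06 and sums of 0.66 and 0.702, and Sox9 was detected in Baf53b-expressing cells only. The part of these cell types in the collagen differences was not tested. In such bulk RNA, fewer cells of a type and less RNA per cell cannot be told apart.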

How the data were processed

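Total RNA of 2 samples, 1 per condition, was labelled with Cy3 and hybridised to 1-colour mouse arrays designed on mm9. Per the labels, images were read with Agilent Feature Extraction 11.0.1.1. The authors deposited spot intensities with the background already subtracted, flags for each spot, and a table of ratio values, each probe's signal divided by 1 number per array (1160 and 1126).

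Control and outlier spots were left out, log2 intensities were averaged per probe, and each array was scaled to its own 75th percentile. A probe was detected when at least 50% of its spots carried the flag for well above background. Gene symbols came from matching RefSeq accessions to a GRCm38.p6 table, used for names and neighbours only. With 1 array per condition no test was made, and this number of arrays limits the precision.

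The members and lists were chosen with earlier results of these data known. Genes were named by rule: the highest signals overall and per class, the largest differences and bounds in each direction, disagreeing probes, and for each pathway list the 2 highest signals and any difference of 0.5. Values of the remaining members were added to account for all of them. The marker lists covered ES cells, primitive endoderm, fibroblasts and chondrocytes. Alternatives were cyclic loess, quantile normalization, median centring, normexp (offset 50) on the median signal, no, stricter and weaker filters, outlier spots kept, 1 value per gene and the authors' table. Python 3.11.15, numpy 2.4.6, pandas 2.3.3, matplotlib 3.10.9, R 4.3.3 and limma 3.58.1 were used, and the steps were tested on simulated data.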

Additional observations from a re-analysis of the deposited data

How the results depend on the processing

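No paired analysis was possible because each condition has a single array, which also leaves no replicate to omit. The count of collagen probes detected on both arrays was 37, 61 with no filter on dim probes and 7 with a stricter one, under which 4 were higher in Baf53b-expressing cells. The counts at least 0.5 higher and at least 0.5 lower, both 0, became 6 and 3 with no filter, 3 and 2 with a weaker detection flag, and the second became 1 with quantile normalization. The count at least 2-fold apart became 6 with no filter and 3 with the weaker flag, all of them then resting on probes not well above background on both arrays. The count on 1 array only, 7, was 4 with 1 value per gene and 4 with the weaker flag. The median of collagen IV was 0.01 with normexp, and that of the small leucine-rich proteoglycans was 0.01 with no filter and 0.01 with the stricter filter. The medians ran from 0.02 to 0.22 for fibril-forming collagens, from -0.16 to 0.00 for FACIT collagens, from 0.03 to 0.11 for collagen VI and from 0.08 to 0.23 for transmembrane collagens. Those of procollagen proteinases (-0.15 to 0.02), chaperones (-0.03 to 0.05) and hydroxylases (-0.05 to 0.02) took both signs, and those of receptors and degrading enzymes stayed at 0.07 or above. The median over the collagen probes ran from 0.00 to 0.10. Of 30 collagen genes detected on both arrays, 17 kept their direction in every alternative that could give a value and 13 did not, and 6 of the 30 passed the stricter filter. Outlier spots kept, 1 value per gene and the authors' table could hardly change a gene's difference. Each collagen probe has 1 spot per array, and that table divides each array by 1 number. Filters change a gene's value only where they let in or remove a probe, so 17 overstates the agreement of independent settings. Depth is set by the signal over background, with 8.45 and 9.75 the lowest signals that counted as detected.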
